A study of Mus musculus with 8 samples.

Results

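Genes of amino acid reabsorption in the proximal tubule, Slc3a1, Slc7a9, Slc6a19, Slc6a18, Slc6a20b, Slc1a1, Tmem27, Slc3a2, Slc7a7 and Slc7a8, were followed in whole kidneys of Ctrp1-/- mice (KO) and wild-type mice (WT). They were picked by name, as the rows of the expression table that carry these 10 symbols, out of 23386 genes in all. Each of the 10 symbols had 1 row and passed the filter on low values, which left 14022 genes for testing. The left kidneys of 4 KO and 4 WT mice, all 49 weeks old and labelled C57BL/6J, gave 1 poly(A)-selected library each. The KO allele is a germline deletion in the largest exon of C1qtnf1, the gene of the secreted protein CTRP1, and is therefore carried by every cell of the animal. It was made in 129S5 embryonic stem cells, backcrossed to C57BL/6J, and bred by crossing heterozygotes, a scheme that can give KO and WT littermates. The labels do not give the sex or the litter of the individual animals.

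Amino acids filtered in the glomerulus are recovered almost completely by the proximal tubule, which moves them in series across its apical membrane, facing the urine, and its basolateral membrane, facing the blood. Several of the carriers work only as complexes. A light subunit of the Slc7 family needs a heavy subunit of the Slc3 family to reach the membrane, and the apical carriers Slc6a18 and Slc6a19 need Tmem27, also called collectrin. Human mutations in SLC3A1 or SLC7A9 cause cystinuria, those in SLC7A7 lysinuric protein intolerance and those in SLC6A19 Hartnup disorder.

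The libraries held between 15027400 and 19256378 counted reads. C1qtnf1 measured 0.325 ± 0.174 FPKM in KO and 3.63 ± 0.877 in WT (SD, n = 4 each), after each library was divided by 1 scaling factor. This scaled FPKM, fragments counted relative to gene length and library size, is the unit of every level below. Its log2 fold change was -2.32 (limma adjusted p = 0.000768). Proximal tubule cells were well represented, as the 10 markers of any of its segments summed to between 7419 and 8283 in KO and between 8531.5 and 8821 in WT. WT replicate 3 was the lowest library and KO replicate 1 the highest for straight-part proximal tubule markers. KO replicate 3 had the lowest sum of the 10 markers of any segment, at 7419. It also had the highest level of Aqp2, a collecting duct marker, at 446. Values without each of these libraries are given below. All 10 transporter genes lie outside chromosome 11, where the targeted gene is.

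The carriers were among the more abundant messages of the kidney. Averaged over the 8 libraries, Tmem27 was the highest at 734, a level above 99.7% of the genes tested. Slc6a18 (169), Slc3a1 (144) and Slc6a19 (126) came next, and their ranges touched or overlapped from each to the next. Slc3a2 (89.4), Slc7a9 (85.8) and Slc7a7 (84.9) were not separated, since the higher of each neighbouring pair was above the lower in 5 of 8 libraries. Slc7a8 (66.2), Slc6a20b (56.3) and Slc1a1 (41.5) were the lowest, and the range of Slc1a1 did not reach that of Slc6a20b. FPKM is given per length, so these levels can be set side by side. Between 2317 reads for Slc1a1 and 18558 reads for Tmem27 were counted per gene and library.

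None of the 10 genes passed an adjusted p of 0.05 over all genes (0 of 10 by limma on log2 values and 0 of 10 by limma-voom on recovered reads). Of all genes tested, 0.0499% passed by limma and 0.0571% by limma-voom. 5 of the 10 had an unadjusted limma p under 0.05, all lower in KO, against 8.26% of all genes tested on that side and 7.18% on the higher side. They were the 3 basolateral genes Slc3a2, Slc7a7 and Slc7a8 and the 2 apical genes Slc7a9 and Slc6a19. In the 3 basolateral genes, every KO library was below every WT library, as was so for 4.28% of all genes, and no member had every KO library above every WT library, as was so for 4.34% of all genes. The median log2 fold change was -0.14 over the 10 genes, -0.35 over the 3 basolateral and 0.02 over the 7 apical ones, against -0.0012 over all genes tested. The apical median was -0.063 once trends in base composition and length were taken out, so it has no settled direction.

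**Figure D1:**
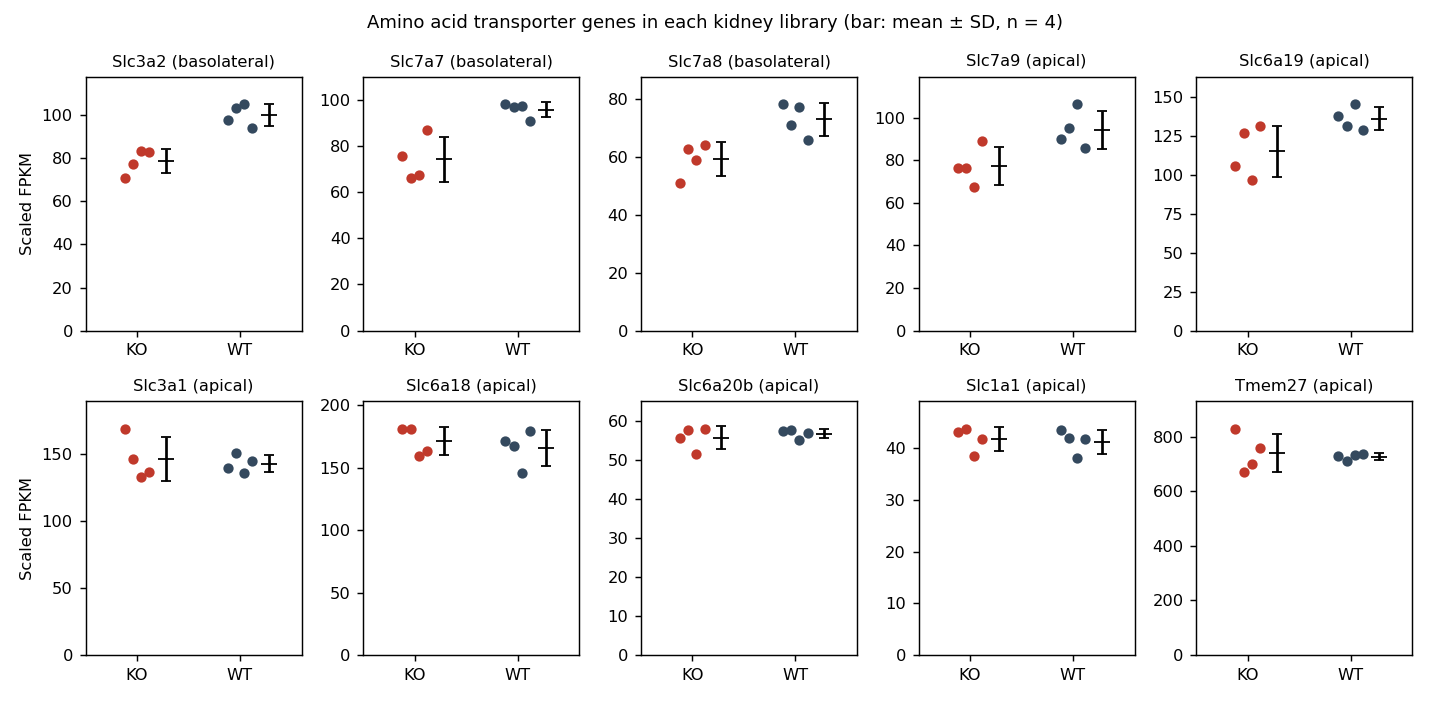
Scaled FPKM (vertical axes, linear, from 0) of each of the 10 genes in the KO and WT kidney libraries; each point is 1 library, and the bar gives mean ± SD (n = 4). The KO and WT points of Slc3a2, Slc7a7 and Slc7a8 do not overlap, whereas those of Slc3a1, Slc6a18, Slc6a20b, Slc1a1 and Tmem27 overlap.

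Slc3a2 (ENSMUSG00000010095; chromosome 19, 8706882 to 8723369, minus strand, mm10) encodes 4F2hc, the heavy subunit that carries several light subunits to the basolateral membrane. It measured 71.1, 77.5, 83.4 and 82.9 in the KO libraries, against 97.7, 103, 105 and 94.1 in the WT libraries. The highest KO library thus lay below the lowest WT library. The KO mean was 78.7% of the WT mean (78.7 ± 5.75 and 100.05 ± 5.07, SD, n = 4 each), a log2 fold change of -0.35 (SE 0.06), which missed the threshold at a limma adjusted p of 0.108. It had the smallest p of the 10.

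Slc7a7 (ENSMUSG00000000958; chromosome 14, 54369444 to 54409472, minus strand) encodes y+LAT1, the light subunit that sends lysine and arginine to the blood in exchange for neutral amino acids and sodium. Its levels were 75.7, 66.2, 67.5 and 86.9 in KO and 98.0, 96.6, 97.1 and 90.9 in WT. Here too the groups stood apart, with KO replicate 4 nearest to the WT libraries. The KO mean was 77.4% of the WT mean, the lowest share among the 10 genes, and the log2 fold change of -0.37 (SE 0.08) did not reach the threshold, at an adjusted p of 0.151 by limma. Annotated exons of Oxa1l on the opposite strand cover 6.998% of the exon bases of Slc7a7, and without a stated strand the reads there cannot be assigned. Oxa1l itself measured 27.7 ± 0.952 in KO and 31.2 ± 2.41 in WT (SD, n = 4 each).

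Slc7a8 (ENSMUSG00000022180; chromosome 14, 54722216 to 54781886, minus strand) encodes LAT2, the other basolateral light subunit, an exchanger of neutral amino acids. It stood at 51.0, 62.9, 59.1 and 64.2 in KO, against 78.3, 71.0, 77.3 and 66.1 in WT. The gap between the groups was narrow, from 64.2 in KO replicate 4 to 66.1 in WT replicate 4. The KO mean was 81.1% of the WT mean, and the log2 fold change of -0.30 (SE 0.08) missed the threshold (limma adjusted p = 0.178).

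For each of the 3 basolateral genes the exact two-sided permutation test over the libraries gave 0.0286, the smallest p that 4 against 4 allow, unadjusted. GC content of the 3 transcripts was 52.4% to 53.4%, and the fifth of all genes in that range had a median log2 fold change of -0.05. With trends in GC content and length removed, the log2 fold changes were -0.30 for Slc3a2, -0.33 for Slc7a7 and -0.28 for Slc7a8 (limma adjusted p of 0.239, 0.274 and 0.311).

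On the apical side, the exchanger of cystine and dibasic amino acids, system b0,+, is a pair of Slc3a1 and Slc7a9, and the members of this pair had different values. Slc7a9 (ENSMUSG00000030492; chromosome 7, 35449037 to 35466036, plus strand), the light subunit, measured 76.4, 76.6, 67.5 and 89.0 in KO and 90.1, 95.3, 106 and 85.5 in WT. KO replicate 4 lay inside the WT range and the other 3 KO libraries below it. The KO mean was 82.0% of the WT mean, with a log2 fold change of -0.29 (SE 0.09; limma adjusted p = 0.217, not past the threshold).

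Slc3a1 (ENSMUSG00000024131; chromosome 17, 85028347 to 85064243, plus strand), the heavy subunit rBAT, measured 169, 146, 132 and 136 in KO, against 139, 151, 136 and 145 in WT. The groups overlapped throughout, and KO replicate 1 was the highest of all 8 libraries. Its log2 fold change was 0.03, with a 95% interval of -0.14 to 0.20 (limma adjusted p = 0.892). Exons of Prepl on the opposite strand cover 26.5% of the exon bases of Slc3a1, so part of its reads cannot be assigned without strand. Prepl measured 36.5 ± 0.733 in KO and 35.7 ± 1.47 in WT (SD, n = 4 each).

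Slc6a19 (ENSMUSG00000021565; chromosome 13, 73679745 to 73704865, minus strand) encodes B0AT1, the main sodium-driven entry route of neutral amino acids. Its levels were 106, 127, 96.8 and 131 in KO and 138, 132, 145 and 129 in WT. KO replicates 1, 2 and 3 were below every WT library, and KO replicate 4 was within the WT range. The KO mean was 84.7% of the WT mean, with a log2 fold change of -0.25 (SE 0.10; limma adjusted p = 0.266, not past the threshold). Its unadjusted p, 0.0264 here, was 0.0552 with quantile normalization and 0.121 when the libraries were scaled on proximal tubule markers. It was also above 0.05 without KO replicate 1, KO replicate 3, WT replicate 1 or WT replicate 3.

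Slc6a18 (ENSMUSG00000021612; chromosome 13, 73661750 to 73678023, minus strand) is the neighbour of Slc6a19 on the chromosome and encodes B0AT3, a carrier of glycine and other neutral amino acids in the mouse. It had 181, 181, 160 and 164 in KO, against 172, 167, 146 and 179 in WT. The ranges overlapped, and WT replicate 3 was the lowest library. The log2 fold change was 0.05 (95% interval -0.12 to 0.22; limma adjusted p = 0.775).

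Tmem27 (ENSMUSG00000015401; chromosome X, 164088830 to 164118860, plus strand), the partner that brings both Slc6 carriers to the apical membrane, measured 830, 670, 701 and 758 in KO and 730, 710, 732 and 737 in WT. The WT libraries were almost level and the KO libraries lay on both sides of them, with coefficients of variation of 9.51% in KO and 1.61% in WT. The log2 fold change was 0.02 (95% interval -0.13 to 0.17; limma adjusted p = 0.911).

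Slc1a1 (ENSMUSG00000024935; chromosome 19, 28835049 to 28913960, plus strand), the apical glutamate and aspartate carrier EAAC1, measured 43.2, 43.8, 38.4 and 41.7 in KO and 43.5, 42.0, 38.0 and 41.7 in WT. Slc6a20b (ENSMUSG00000025243; chromosome 9, 123593820 to 123632565, minus strand), a close relative of the proline carrier gene Slc6a20a, measured 55.6, 57.7, 51.7 and 58.1 in KO, against 57.5, 57.8, 55.0 and 56.8 in WT. In both genes the groups overlapped, and for Slc6a20b 1 KO library lay below the WT range and 1 above it. Log2 fold changes were 0.02 for Slc1a1 (95% interval -0.12 to 0.15) and -0.03 for Slc6a20b (-0.14 to 0.08). These intervals are unadjusted, and that of Slc6a20b overlaps the interval of the basolateral gene Slc7a8 (-0.49 to -0.12). With trends in GC content and length removed, Slc6a20b stood at -0.12. Of the 100-base words of the Slc6a20b transcript, 6.44% also occur in Slc6a20a, which measured 6.01 in KO and 6.57 in WT, and reads there are uncertain. Exons of 4430402I18Rik on the opposite strand cover 31.9% of the annotated exon bases of Slc1a1, and this gene measured 2.29 in KO and 2.17 in WT.

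**Figure D2:**
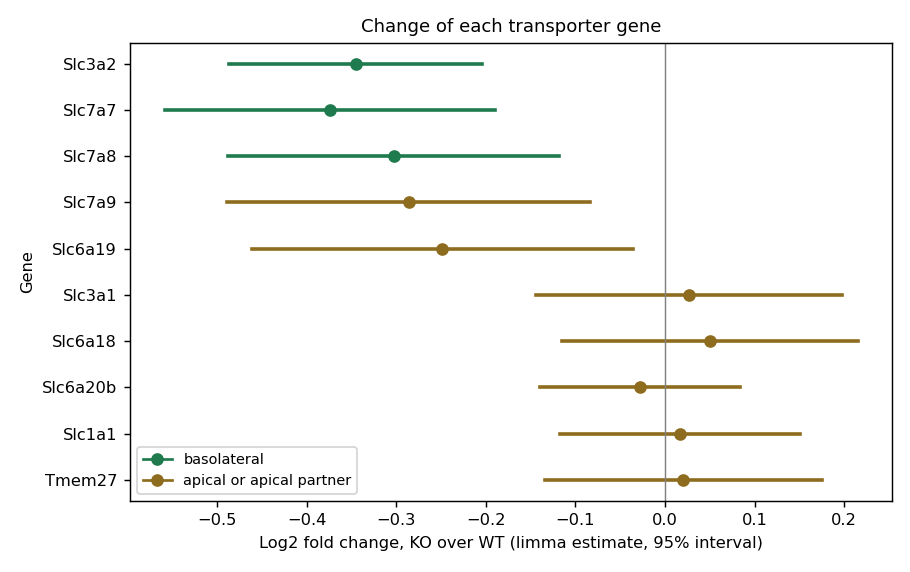
Limma estimate of the log2 fold change of each gene, KO over WT (point), and its 95% interval (line), on the horizontal axis; basolateral genes are green, and apical carriers with their partner brown. The intervals of Slc3a2, Slc7a7, Slc7a8, Slc7a9 and Slc6a19 lie below 0 before any adjustment for the number of genes tested, and the other 5 include 0.

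Partner subunits can be set side by side within a library, as ratios of their levels per length. The ratio of Slc3a1 to its light subunit Slc7a9 was 2.21, 1.91, 1.96 and 1.53 in KO and 1.55, 1.58, 1.28 and 1.69 in WT. It averaged 1.90 ± 0.279 in KO and 1.52 ± 0.176 in WT (SD, n = 4 each), and the groups overlapped through KO replicate 4. The basolateral pairs had means that lay closer together. Slc3a2 over Slc7a7 averaged 1.07 ± 0.151 in KO and 1.05 ± 0.0379 in WT, and Slc3a2 over Slc7a8 averaged 1.33 ± 0.0847 in KO and 1.37 ± 0.0916 in WT (SD, n = 4 each). Both ratios overlapped between the genotypes. Within KO, Slc3a2 over Slc7a7 ran from 0.938 in KO replicate 1, the lowest library for Slc3a2, to 1.24 in KO replicate 3.

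Slc6a19 over Tmem27 was 0.127, 0.189, 0.138 and 0.173 in KO and 0.189, 0.185, 0.198 and 0.175 in WT, again with overlap. The summed level of the 7 apical genes divided by that of the 3 basolateral genes was 7.39, 6.30, 5.94 and 5.89 in KO, against 5.003, 5.002, 4.86 and 5.47 in WT. Every KO library was above every WT library in this ratio. The apical sum averaged 1348 ± 93.0 in KO and 1365 ± 9.21 in WT, whereas the basolateral sum averaged 212 ± 15.5 in KO and 269 ± 12.4 in WT (SD, n = 4 each). Tmem27 makes up most of the apical sum and is a partner, not a carrier. No test was run on these ratios, so a difference between apical and basolateral genes was not tested.

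**Figure D3:**
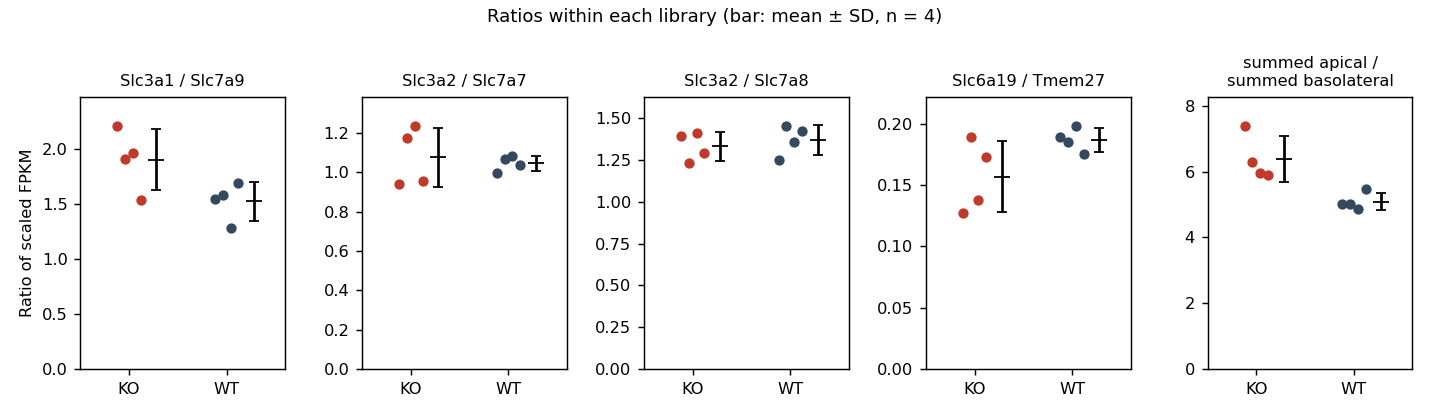
Ratios of scaled FPKM within each library (vertical axes, linear, from 0) for 4 pairs of partner genes and for the summed apical over the summed basolateral genes; each point is 1 library, and the bar gives mean ± SD (n = 4). The Slc3a2 pairs sit at the same height in KO and WT, and the apical to basolateral ratio is 5.89 or more in KO and 5.47 or less in WT.

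In whole kidney, fewer cells of a type and less RNA per cell cannot be told apart, so the markers of the tubule segments are given beside these values. Slc7a9, Slc6a19, Slc7a7 and Slc7a8 are known mainly from the convoluted part of the proximal tubule. The 5 markers of that part summed to 3061 to 3278 in KO and 3500.3 to 3890.2 in WT, and Slc34a1 made up most of each sum. Of the 5 markers, 3 were lower at an unadjusted p under 0.05, against 8.26% of all genes tested. None passed after adjustment, and the median log2 fold change was -0.21. The groups overlapped for Slc5a12 (-0.24), and Slc22a6 was level, at 255 in KO and 253 in WT (0.02). The glucose carrier gene Slc5a2 measured 232 ± 9.48 in KO and 268 ± 7.39 in WT (log2 fold change -0.21), the phosphate carrier gene Slc34a1 2422 ± 98.3 in KO and 2804 ± 159 in WT (-0.21), and the organic anion carrier gene Slc22a8 164 ± 16.9 in KO and 231 ± 28.8 in WT (-0.49; SD, n = 4 each). The part of these markers in the values of the transporter genes was not tested.

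Markers of the straight part lay the other way. The 5 genes summed to 381 to 538 in KO and 205 to 371 in WT. All 5 were higher in KO, 4 of them at an unadjusted p under 0.05, against 7.18% of all genes tested. After adjustment none passed. Without WT replicate 3 the log2 fold changes were -0.32 for Slc3a2, -0.37 for Slc7a7, -0.28 for Slc7a8, -0.23 for Slc7a9 and -0.22 for Slc6a19. Without KO replicate 1 they were -0.30, -0.39, -0.23, -0.28 and -0.21 in the same order. Without KO replicate 3 they were -0.37, -0.33, -0.30, -0.22 and -0.17. Among the 10 markers of any proximal segment, the median was -0.04. At an unadjusted p under 0.05, 3 of these markers were lower (8.26% of all genes tested) and none higher (7.18%). Miox, the enzyme that breaks down inositol, was the lowest of them by p at 1755 ± 78.9 in KO and 2211 ± 101 in WT (SD, n = 4 each; limma adjusted p = 0.108). Scaling the libraries on these 10 markers left Slc3a2 at -0.25, Slc7a7 at -0.28, Slc7a8 at -0.21, Slc7a9 at -0.20 and Slc6a19 at -0.16. Under this scaling the unadjusted p of Slc7a8, 0.0675, and that of Slc6a19 were no longer under 0.05. None of the tested markers of the thick ascending limb, distal convoluted tubule, collecting duct, podocytes, endothelium, leukocytes or tubule injury passed after adjustment. Krt20, a tubule injury marker, fell below the filter and was not tested. Havcr1, another, was 4.73 in WT replicate 3 and 1.89 in WT replicate 2, and at most 0.656 in KO. Lcn2 was highest in KO replicate 3 (4.07), then in WT replicate 3 (3.40). The part of these levels in the values of the transporter genes was not tested. At an unadjusted p under 0.05, 2 of 3 intercalated cell markers and 1 of 3 leukocyte markers were lower, against 8.26% of all genes tested.

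**Figure D4:**
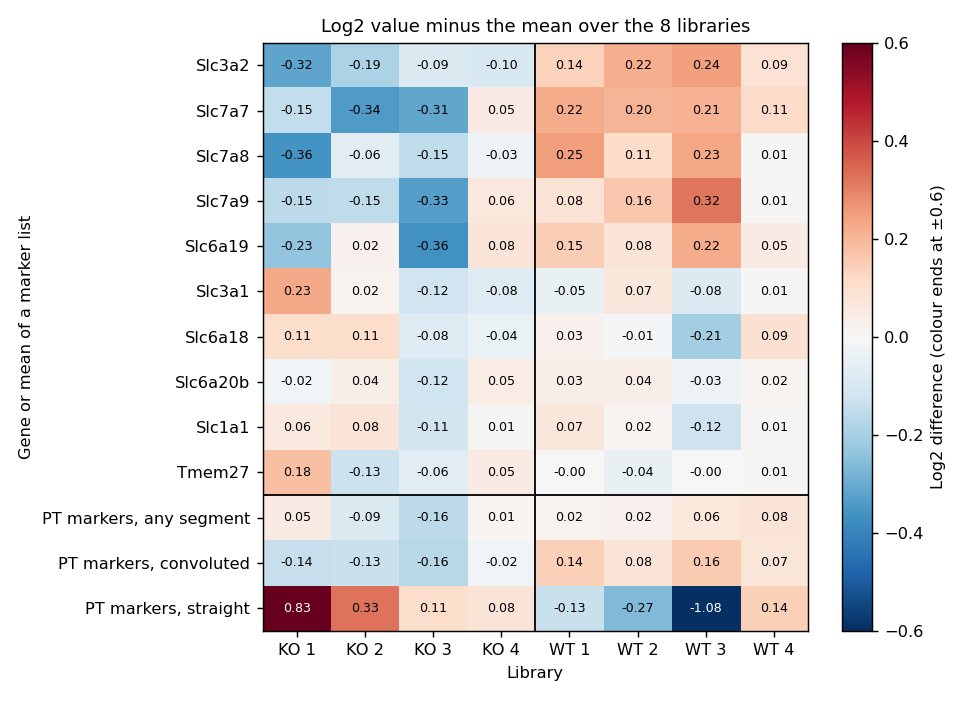
Log2 value minus its mean over the 8 libraries for each gene (rows above the line) and for the mean of each proximal tubule (PT) marker list (rows below it), by library (columns); red is above the mean of the 8 and blue below, and the colour ends at ±0.6. The 3 basolateral genes are below their mean in every KO library except Slc7a7 in KO 4, and the straight-part markers stand at 0.83 in KO 1 and -1.08 in WT 3.

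The likeness of the members to each other was described without a test. Over the 45 pairs, it was measured as the root mean square difference of centred log2 values over the 8 libraries. A small value means that 2 genes moved together or that both hardly varied. The difference between KO and WT is part of the measure. Slc6a20b and Slc1a1 were the most alike (0.0487), then Slc6a18 and Slc1a1 (0.0540). Slc3a2 and Slc7a8 (0.0847) were the closest of the subunit partners and Slc3a1 and Slc7a9 (0.232) ranked 35th, among the least alike. Slc7a9 was closer to Slc6a19 (0.0873) than to its own heavy subunit. Over all genes tested, those closest to Slc7a7 were Apom (0.0632), St6galnac2 (0.0687) and Tmem106a (0.0777), those closest to Slc7a9 were Ablim3 (0.0542), Cryl1 (0.0604) and Creg1 (0.0647), and those closest to Slc6a19 were Cdc42ep3 (0.0314), Slc27a3 (0.0584) and Tmem198b (0.0601). The median over all genes was 0.251 from Slc7a7, 0.229 from Slc7a9 and 0.222 from Slc6a19.

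Of 28 other amino acid, peptide and amine carriers, 24 were tested and none passed after adjustment (0 of 24 by limma), with a median log2 fold change of 0.02. At an unadjusted p under 0.05, 5 were lower and 2 higher, against 8.26% and 7.18% of all genes tested. Slc7a13, an apical carrier of the straight part that also pairs with Slc3a1, measured 563, 480, 509 and 496 in KO and 439, 398, 285 and 437 in WT, with every KO library above every WT library (log2 fold change 0.41, SE 0.13, with an adjusted p of 0.213 by limma). The creatine carrier gene Slc6a8 measured 83.4 ± 6.999 in KO and 96.6 ± 5.29 in WT, and the weakly expressed glutamate carrier gene Slc1a3 0.918 ± 0.256 in KO and 0.476 ± 0.102 in WT (SD, n = 4 each). A further basolateral carrier gene, Slc16a10 for aromatic amino acids, chosen after its values were seen, was 11.1, 12.6, 12.0 and 13.1 in KO and 13.8, 13.4, 15.6 and 13.6 in WT, groups that do not overlap (log2 fold change -0.20; limma adjusted p = 0.243). The remaining 3 on the lower side, also chosen after their values were seen, were Slc1a5 (-0.16), Slc6a6 (-0.18) and Slc38a3 (-0.57). The list was not split by membrane side. Of its 24 tested genes, 12 were below WT, and Slc16a10 was the only 1 lower without overlap, against 4.28% of all genes. Among other carriers of the list, the groups overlapped for Slc43a2 (-0.11), Slc7a6 (-0.07), Slc6a13 (0.09) and Slc6a12 (0.70).

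Of 10 regulators and partners of these carriers or of the proximal tubule, none passed after adjustment. Maf, a basic leucine zipper transcription factor, measured 50.3, 52.4, 51.2 and 60.6 in KO, against 71.4, 74.4, 70.4 and 70.4 in WT. Its groups did not overlap, and its log2 fold change of -0.42 (SE 0.06) had an adjusted p of 0.0885 by limma. Mtor, the kinase that responds to amino acids, measured 45.1 ± 2.86 in KO and 37.5 ± 6.55 in WT (SD, n = 4 each). The nuclear receptor gene Hnf4a measured 256 in KO and 260 in WT (log2 fold change -0.02). Among 12 amino acid response genes driven by ATF4, a factor for which Slc3a2 is a known target, none passed after adjustment. Cebpb (6.18 in KO, 8.37 in WT) and Shmt2 (114 in KO, 123 in WT) were lower at an unadjusted p under 0.05, and Asns (2.40 in KO, 1.51 in WT) higher, so the list had members on both sides. Of all genes tested, 8.26% were lower and 7.18% higher at that p.

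Promoters of 9 of the 10 genes, from 250 bases before to 50 after each annotated start, were found in RefSeq (GRCm38.p6), and Slc6a18 had no entry. They were searched on both strands for CAAAGTCCA, bound by HNF4, for TGCTGA, an arm of the motif of MAF, and for TGATGNAA, the core of an element bound by ATF4 with CEBP factors. The stretches below are shown because they set a carrier whose groups did not overlap, Slc7a7, beside Slc3a1, whose groups did; capitals mark the matched letters, and each is written on the strand of its gene.
Slc3a1, HNF4 motif at -39, chr17:85028298-85028326: cttggctggaCAAAGTCCAgccatgatta
Slc7a7, MAF arm at -177, chr14:54410363-54410392: tatcacagaaagTGCTGAgccaggagctcc
Slc7a7, ATF4 and CEBP core at -141, chr14:54418067-54418096: ccgcttgggctTGATGAAAggttcactggg
Positions count back from the RefSeq start, 85028347 for Slc3a1 and, for Slc7a7, 54410203 for the MAF arm and 54417944 for the ATF4 and CEBP core. Both of these Slc7a7 starts lie upstream of 54409472, where the expression row of this gene begins. Neither the use of these starts in kidney nor a link of any match to the levels was tested. CAAAGTCCA occurs in 0.475% of all promoters, TGCTGA in 19.5% and TGATGNAA in 3.97%. Slc3a1 also holds a MAF arm just after its start, and Slc7a7 a MAF arm just after the start at 54409472 and a further TGATGNAA match that lies in the windows of both the starts at 54417944 and 54417702. No match to these 3 motifs was found in the windows of Slc3a2, Slc7a8, Slc7a9, Slc6a19, Slc6a20b, Slc1a1 or Tmem27. Slc7a7 had 5 windows searched, Slc7a9 and Tmem27 had 2 each and the other 6 genes 1 each, so Slc7a7 had the most sequence in which letters could match.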

How the data were processed

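The authors deposited 1 table of FPKM for 23386 genes and 8 libraries, with gene length and position on mm10, per the file headers. The submitters' processing notes name CASAVA, STAR 2.5, HTSeq 0.6.1 and DESeq2 without their roles, and no source used here states the strand setting. Gene length, the other deposited column used, is in bases. FPKM times length gave whole multiples of 1 step for 100% of values (tolerance 0.01), which recovered the reads.

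Each library was divided by a median-ratio factor (0.978 to 1.03). Genes with a mean of at least 0.5 were fitted as log2(scaled FPKM + 0.5) with limma 3.58.1 (eBayes with trend) in R 4.3.3, with genotype as the only term, and adjusted by Benjamini-Hochberg over 14022 genes. Fold changes are on that scale. The fit was also run on simulated data, and its rate of recovery of set changes is not reported here. Replicates are numbered in the order of the records. GC content came from GENCODE vM21 transcripts (99.5% of tested genes). Shares of overlapping exons are over all exons of a gene in that release, 8257 bases for Slc1a1 and 3315 for Slc7a7. The deposited lengths of these genes are 3800 and 2142, so the shares need not hold for the counted region. The annotation release behind the counts is not stated.

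The 10 genes and the lists were chosen with earlier results of these data known. Genes named beyond them were C1qtnf1, the up to 3 of smallest p in the lists described, Slc6a20a, and the 3 genes nearest to Slc7a7, Slc7a9 and Slc6a19; others are marked as chosen later or serve as background. Some genes that this rule names are not reported here.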

Additional observations from a re-analysis of the deposited data

How the results depend on the processing

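No paired analysis was possible because the labels give KO and WT animals no shared number. Other pseudocounts, filters, scalings, limma settings, voom on recovered reads and removal of GC and length trends left 0 of the 10 genes past the threshold, as did leaving out each library. The smallest adjusted p under any of them was 0.0630, for Slc7a7 in the fits that left out a library. Slc3a2, Slc7a7, Slc7a8, Slc7a9 and Slc6a19 were negative under all 19 alternatives. When libraries were scaled on the 10 proximal tubule markers, an alternative chosen after seeing the data that moved the median of all genes to 0.08, 3 of the 10 were at an unadjusted p under 0.05 (Slc3a2, Slc7a7 and Slc7a9), the median of the 10 was -0.047 and Slc6a20b stood at 0.063. Removal of GC and length trends put Slc1a1 at -0.0072, Tmem27 at -0.063 and Slc6a20b at -0.12 (limma unadjusted p = 0.0624 for Slc6a20b). Leaving out 1 library gave ranges across 0 for Slc3a1 (-0.046 to 0.070), Slc6a18 (-0.011 to 0.088), Slc1a1 (-0.022 to 0.055), Tmem27 (-0.037 to 0.066) and Slc6a20b (-0.047 to 0.0074), and 4 or 5 genes at an unadjusted p under 0.05, Slc6a19 being the one lost. The cause of these shifts was not tested. Each gene had at least 2317 reads in every library, and precision rests on 4 animals in each group.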

Other observations

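The 2 light subunits that can pair with Slc3a1 lay on opposite sides, a comparison chosen after the values were seen. The level of Slc7a13 divided by that of Slc7a9 was 7.38, 6.27, 7.54 and 5.58 in KO, against 4.87, 4.18, 2.68 and 5.11 in WT. Every KO library was above every WT library, and WT replicate 3 was the lowest. The ratio averaged 6.69 ± 0.933 in KO and 4.21 ± 1.09 in WT (SD, n = 4 each). Markers of the straight part, where Slc7a13 is known to act, were also higher in KO, and their part in this ratio was not tested.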
